A study of Homo sapiens with 6 samples.

Results

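The 42 genes described here encode the machinery by which cells make cholesterol and fatty acids: 5 regulators around the sterol regulatory element-binding proteins (SREBPs), 19 genes of cholesterol synthesis and transport, and 18 genes of fatty acid synthesis, desaturation and activation. They were taken by name from a list of the pathway, which was drawn up with earlier results of these data known. All 42 were found among the 58523 genes to which transcript counts could be summed, and all 42 were among the 22580 genes with enough counts to be tested.

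RNA sequencing was done on 6 independent cultures of the established human melanoma line A375, grown in medium with fetal bovine serum. The 3 control cultures (replicates 1 to 3) received no treatment. The 3 treated cultures (replicates 4 to 6) were exposed for 24 h to hMGL, an engineered human methioninase, an enzyme that degrades methionine. Nothing else distinguished the groups in the labels, and all 6 cultures come from a single cell line. The comparison asks how the lipid synthesis genes differ between cultures with and without the enzyme.

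SREBPs are made as membrane proteins of the endoplasmic reticulum. When sterols are scarce, SCAP escorts them to the Golgi, where proteases release a fragment that enters the nucleus and switches on the genes of lipid synthesis, and INSIG proteins hold the SCAP complex back when sterols are plentiful. SREBF2 mainly drives cholesterol genes and SREBF1 mainly fatty acid genes, and tumour cells often rely on both pathways for membranes. S-adenosylmethionine, which cells make from methionine, is the methyl donor for one route to the membrane lipid phosphatidylcholine. The tables hold RNA alone, so cleavage of the SREBP proteins was not measured.

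Libraries held 50760266 to 59954677 estimated counts. Across genes, log2(CPM + 1), where CPM are estimated counts scaled to library size, correlated with r of 0.9972 to 0.9975 within groups and 0.956 to 0.957 between them, as a description of the libraries. Of 12 melanoma lineage markers 8 had a mean of at least 1 CPM over the 6 libraries. The 12 summed to 796 to 878 CPM in control and 506 to 525 CPM in treated libraries. By the edgeR test used below, 4 of the 11 tested fell, 5 rose and 2 did not pass. SOX10 was at 417 and 350 CPM and MITF at 43.8 and 41.5 CPM in control and treated libraries. SOX5 was at 221 and 24.3 CPM, S100B at 38.6 and 5.83 CPM and S100A1 at 68.9 and 37.3 CPM. PAX3 was at 24.9 and 36.8 CPM, TFAP2A at 10.1 and 15.5 CPM and PMEL at 0.556 and 2.05 CPM. The pigment cell genes MLANA, TYR, DCT and TYRP1 were under 1 CPM in both groups. Summed levels, control against treated, were 8.34 to 8.89 against 5.00 to 5.56 CPM for markers of fibroblasts. They were 36.3 to 40.5 against 39.3 to 41.8 for immune cells and 374 to 396 against 355 to 363 for epithelial cells. For endothelial cells they were 6.95 to 7.42 against 8.60 to 9.36, and for adipocytes or hepatocytes 3.63 to 4.29 against 2.18 to 2.99. In that order 4 of 7, 2 of 7 and 3 of 6 had a mean of at least 1 CPM over the 6 libraries. For endothelial and for adipocyte or hepatocyte markers it was 1 of 5 and 1 of 8. The endothelial genes PECAM1, VWF and TEK, under 1 CPM in control libraries, had treated means of 1.12, 1.36 and 1.32 CPM. None of the markers was at 0 in every library. Their part in the results was not tested.

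Most of the 42 genes were lower after hMGL. In edgeR's quasi-likelihood test, 35 fell, 2 rose (SC5D and GPAM) and 5 did not pass an adjusted p of 0.05 (SCAP, INSIG2, MSMO1, NSDHL and DHCR7). Across all genes tested, 34.5% fell and 34.9% rose by the same rule, so passing the threshold was common in these libraries (69.4% of genes in either direction). At least 2-fold differences were found for 16 members that fell and 1 that rose, where 12.6% and 14.6% of all genes were as far apart. The median log2 fold change was −0.80 over the members, −0.02 over all genes and −0.03 over 15421 protein-coding genes. These directions are relative to the other genes of a library, since library sizes were scaled by TMM (edgeR's trimmed mean method), and fewer cells making an RNA cannot be told apart here from less of it per cell.

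For 37 members the 3 treated libraries all lay below the 3 control libraries, and for 3 they all lay above (36.5% and 36.8% of all genes). The exceptions were SCAP and NSDHL, whose groups overlapped. By arm, 3 of 5 regulators fell and 2 did not pass (median −1.04), 15 of 19 cholesterol genes fell, 1 rose and 3 did not pass (median −0.74), and 17 of 18 fatty acid genes fell and 1 rose (median −1.02). At least 2-fold falls were found for 4 cholesterol genes and 9 fatty acid genes. The plot of levels in each library shows how narrow the spread within groups was beside the distance between them for most members, with DHCR7 as the exception.

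**Figure D1:**
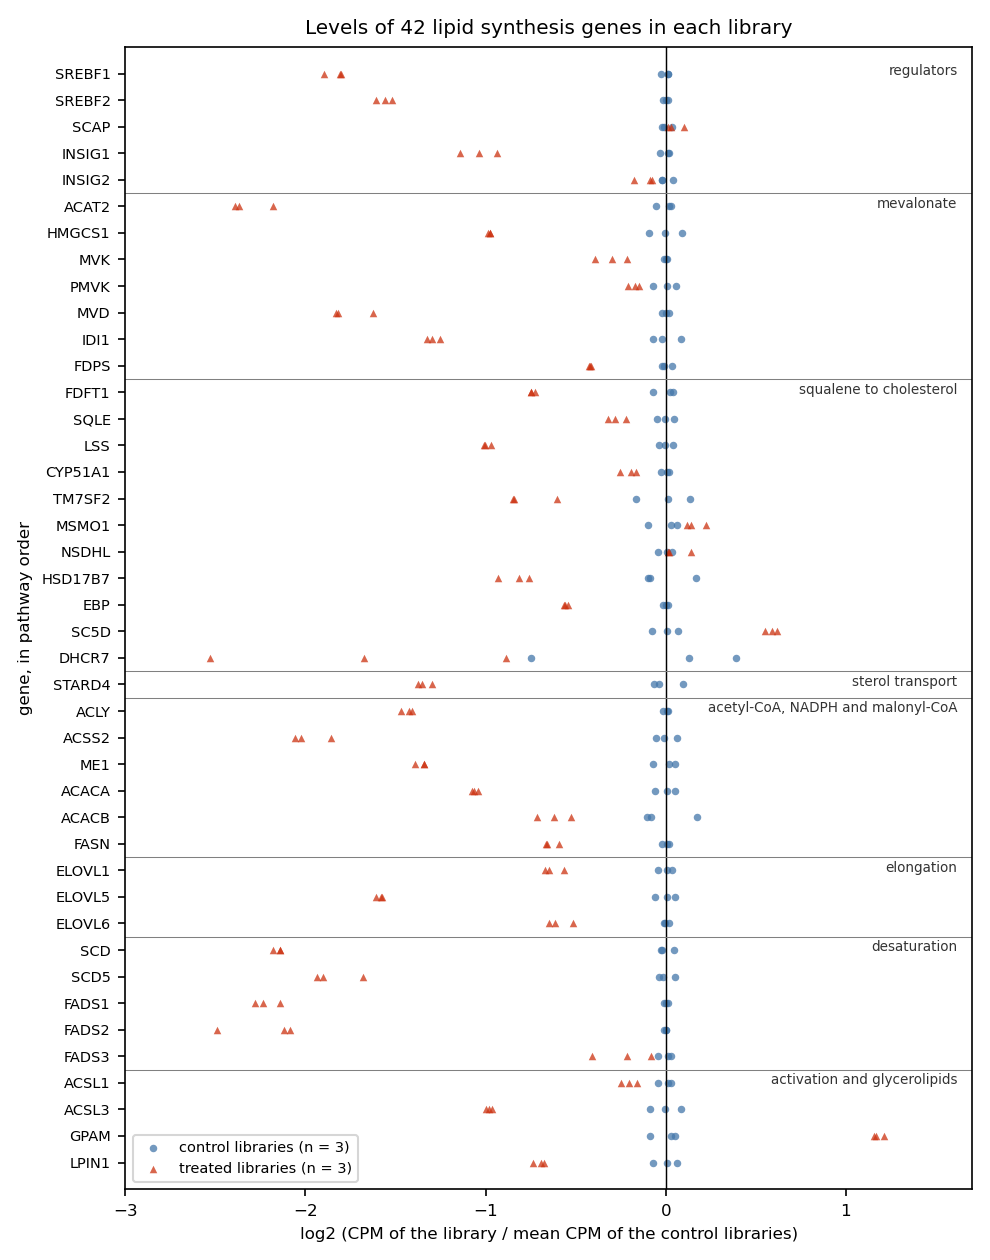
Level of each of the 42 genes in each library, as log2 of its CPM (counts scaled to library size by TMM) over the mean CPM of the 3 control libraries. Circles are control and triangles treated libraries (n = 3 each), in pathway order. For 37 genes the treated libraries lie to the left of the control libraries, for SC5D, MSMO1 and GPAM to the right, and for SCAP and NSDHL they overlap.

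**Figure D2:**
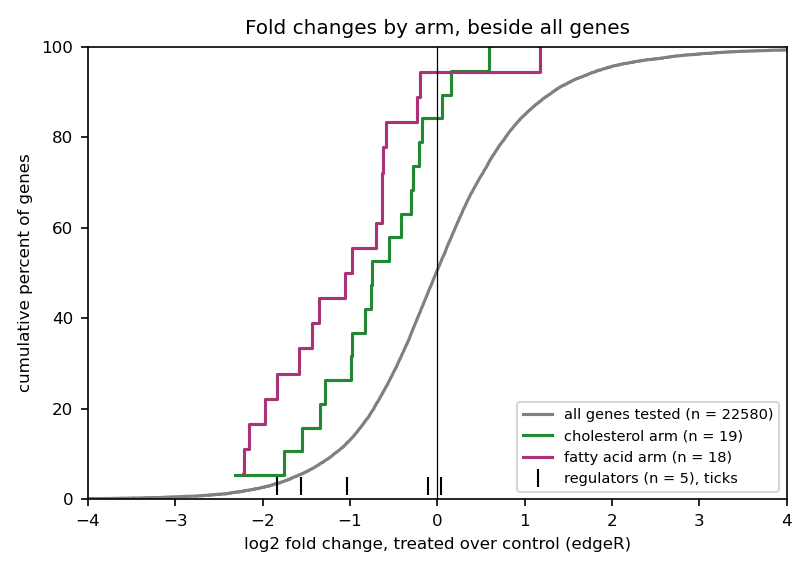
Cumulative percent of genes against the log2 fold change, treated over control, from edgeR. The grey line covers the 22580 genes tested, the green and purple lines the 19 cholesterol and 18 fatty acid genes, and the ticks the 5 regulators. The medians are −0.02, −0.74 and −1.02, so both arms lie to the left of the line for all genes.

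Both genes that encode SREBPs had less RNA. SREBF1 was measured at 209, 202 and 209 CPM in the control libraries and at 59.0, 55.5 and 59.1 CPM in the treated libraries. SREBF2 went from 64.4, 63.6 and 64.8 CPM to 21.04, 21.8 and 22.4 CPM. For both genes each treated library was far below each control library. SREBF1 was 3.57-fold lower (log2 −1.84 ± 0.03 SE, edgeR adjusted p = 8.71e-18) and SREBF2 2.95-fold lower (−1.56 ± 0.04, adjusted p = 2.58e-16). In TPM, which scales counts by transcript length, SREBF1 was the more abundant. Its mean was 78.5 against 7.96 TPM in control libraries and 23.4 against 2.77 TPM in treated libraries. The control ratio of their estimated counts was smaller, at 3.24, 3.18 and 3.22. Mean effective length in control libraries was 1844 bases for SREBF1 and 5644 for SREBF2, and protein-coding transcripts took 62.3% and 87.6% of counts. SREBF1 shares 556 exon bases with RAI1 on the opposite strand (109 and 61.0 CPM in control and treated libraries).

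The SREBP escort SCAP and the retention factors differed among themselves. SCAP was at 109, 104.9 and 106 CPM in control and 109, 108 and 114 CPM in treated libraries, with overlapping groups and no call (log2 0.05 ± 0.03, edgeR adjusted p = 0.216). INSIG1, itself a target of SREBPs, fell 2.05-fold, from 37.5, 36.1 and 37.3 CPM to 18.002, 19.3 and 16.7 CPM (adjusted p = 2.35e-12). INSIG2, a retention factor less dependent on SREBPs, was at 4.78, 4.79 and 4.98 CPM in control and 4.57, 4.28 and 4.60 CPM in treated libraries and did not pass (log2 −0.11 ± 0.10, adjusted p = 0.317). Summed over protein-coding transcripts alone, which took 48.0% ± 4.30 (SD, n = 3) of INSIG2 counts in control and 33.8% ± 9.27 in treated libraries, its log2 fold change was −0.59 (adjusted p = 0.024). SCAP by that sum was called higher (0.16, adjusted p = 0.00231).

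The 5 promoter windows show what letters lie ahead of members that moved in either direction. SREBPs are known to bind variants of the sterol regulatory element, often beside a CCAAT box bound by NF-Y. Windows were read from RefSeq promoters (GRCh38.p14), 5′ to 3′ on the strand of the gene, with CACNCCAC and CCAAT, on either strand, in capitals. They lie at chr22:41832963-41833013 (SREBF2, plus strand), chr7:155297660-155297722 (INSIG1, plus), chr10:1048959-1049028 (IDI1, minus), chr10:100346994-100347136 (SCD, plus) and chr11:121292705-121292801 (SC5D, plus). The first 4 genes fell and SC5D rose.
SREBF2: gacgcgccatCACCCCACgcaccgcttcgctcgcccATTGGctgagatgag
INSIG1: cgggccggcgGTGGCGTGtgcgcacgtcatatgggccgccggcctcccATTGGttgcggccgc
IDI1: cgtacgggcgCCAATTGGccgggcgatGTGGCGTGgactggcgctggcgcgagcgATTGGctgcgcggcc
SCD: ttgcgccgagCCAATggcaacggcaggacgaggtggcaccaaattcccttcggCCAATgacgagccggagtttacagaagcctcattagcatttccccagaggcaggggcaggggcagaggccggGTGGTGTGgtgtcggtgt
SC5D: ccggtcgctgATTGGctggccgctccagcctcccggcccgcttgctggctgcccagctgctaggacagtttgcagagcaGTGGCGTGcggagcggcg

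In the 250 bases before an annotated start, 38 of the 42 members had an entry in the RefSeq table, with 1.47 starts per member and 1.29 per gene over the table, and a gene was counted where any of its starts matched on either strand. TCACNCCAC, a stricter spelling, was found in 2 members (5.3%, SREBF2 and ACSL1) and in 1.09% of 27305 genes. CACNCCAC, which was added after the first spelling had been searched and overlaps it, was found in 7 members (18.4%) and 5.89% of genes, or 6.58% of tested genes. CCAAT was found in 27 members (71.1% against 37.0%, or 40.7% of tested genes), and GGGCGG, the letters of an SP1 site, in 36 (94.7% against 46.2%, or 68.3% of tested genes). CACGTG, an E-box that SREBP-1 and USF factors can bind, was found in 4 (10.5% against 7.73%, or 10.4% of tested genes). The 7 members with CACNCCAC were SREBF2, INSIG1, IDI1, ACACA, SCD and ACSL1, which fell, and SC5D, which rose. These are matches of letters, with no measurement of binding.

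SREBF1 makes its main protein forms from different first exons. SREBP-1a starts with a longer and stronger activation domain, and SREBP-1c, the form known for insulin and LXR control in liver, with a shorter one. The coding part of the first exon, with the start codon in capitals, shows the difference between SREBF1-201 (1a, chr17:17836727-17836817, minus strand) and SREBF1-206 (1c, chr17:17823518-17823536, minus strand) in GENCODE 29 on GRCh38.
SREBF1-201: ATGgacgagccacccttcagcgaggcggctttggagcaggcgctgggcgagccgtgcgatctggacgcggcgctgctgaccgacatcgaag
SREBF1-206: ATGgattgcactttcgaag

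The SREBF1 isoforms fell together. Of 23 listed transcripts 17 could be tested, of which 14 fell, none rose and 3 did not pass (SREBF1-204, SREBF1-207 and SREBF1-216), against 15.2% lower and 17.5% higher of all 83015 transcripts tested. The most abundant was SREBF1-205, a coding transcript with neither of these first exons in GENCODE 29. It was at 53.3, 49.3 and 58.0 CPM in control and 18.95, 16.9 and 18.6 CPM in treated libraries (log2 −1.56 ± 0.08, edgeR adjusted p = 5.32e-05). SREBF1-201 was at 54.4, 49.8 and 34.7 CPM in control and 12.05, 11.5 and 12.1 CPM in treated libraries (log2 −1.96 ± 0.17, adjusted p = 0.000548). The groups did not overlap for either transcript.

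Summed by start, the 2 transcripts with the 1a exon (SREBF1-201 and SREBF1-202) had 62.0 ± 9.92 CPM in control and 16.1 ± 1.39 CPM in treated libraries (SD, n = 3 each). The 3 transcripts with the 1c exon (SREBF1-206, SREBF1-211 and SREBF1-222) went from 37.9 ± 2.32 to 9.85 ± 0.975 CPM, most of it in SREBF1-211, annotated as a retained intron. The 1a exon took 30.2% ± 5.06 of SREBF1 counts in control and 27.5% ± 3.02 in treated libraries, and the 1c exon 18.5% ± 1.14 and 16.8% ± 1.39. The ratio of 1c to 1a counts was 0.602, 0.544 and 0.715 in control and 0.541, 0.558 and 0.756 in treated libraries, and the groups overlapped (exact permutation p = 0.90, two-sided). No SREBF1 transcript was called for a changed share of the gene in edgeR's test of usage (lowest adjusted p = 0.786, and 0 at an unadjusted p under 0.05). The listed length of SREBF1-201 was 4901 bases as deposited and 4178 in GENCODE 29. For SREBF1-205 the lengths were 3800 and 3696 bases, and for SREBF2-201 they were 5237 and 5240. Of 203436 matched transcripts, 178394 had the same length in both. The transcript set used for counting was thus not identical to the annotation used for naming and for first exons.

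SREBF2 RNA was mostly a single coding transcript, SREBF2-201, at 57.1, 53.2 and 56.3 CPM in control and 18.8, 15.1 and 19.3 CPM in treated libraries (log2 −1.65 ± 0.10, edgeR adjusted p = 0.000128). Of its 9 listed transcripts 6 could be tested, of which 3 fell and 3 did not pass. In treated replicate 5, SREBF2-202, a transcript marked for nonsense-mediated decay, took 29.1% of the gene, against 0.435% and 1.43% in the other treated libraries and 2.58% to 10.3% in control libraries. No transcript of SREBF2 was called for a changed share of the gene in edgeR's test of usage (lowest adjusted p = 0.356, and 1 at an unadjusted p under 0.05). Estimated counts of single transcripts varied more than gene sums, with a biological coefficient of variation between libraries of 0.473 for transcripts and 0.074 for genes. Over all 42 genes, 1 of 255 transcripts tested was called for a changed share (0.392%, ACLY-209, under 1 CPM), against 3.28% of 73934 transcripts.

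**Figure D3:**
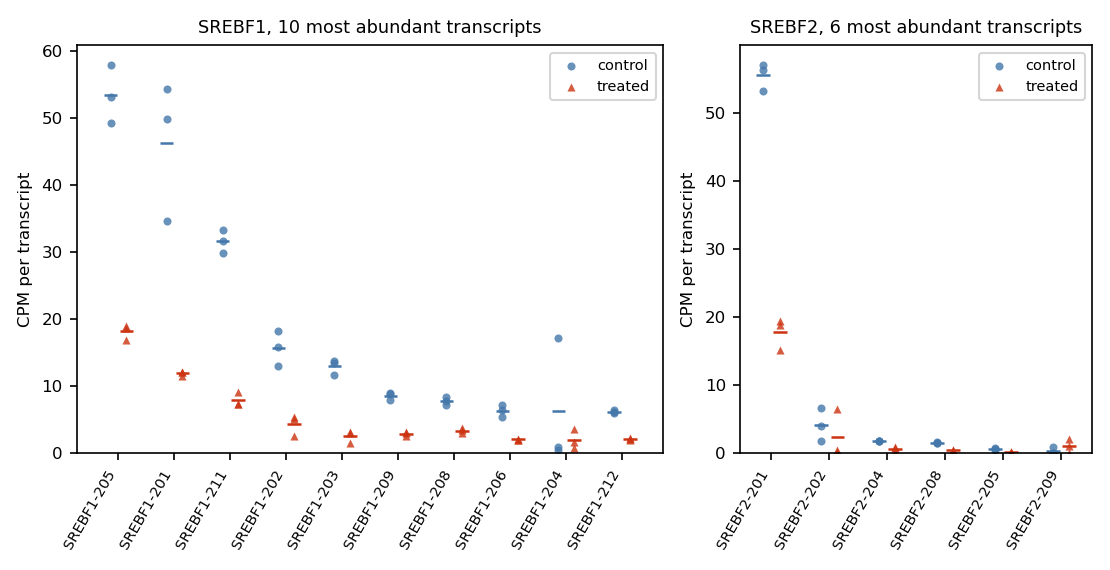
CPM per transcript in each library for the 10 most abundant transcripts of SREBF1 and the 6 most abundant of SREBF2. Circles are control, triangles treated libraries (n = 3 each), and bars are means. SREBF1-205, SREBF1-201 and SREBF2-201 are lower in each treated library, while for SREBF1-204 a single control library (17.2 CPM) lies far above the other control libraries.

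All 7 genes of the mevalonate pathway fell in edgeR (median log2 −0.98), PMVK and MVK not in every setting, by sizes that differed along the pathway. ACAT2, the cytosolic thiolase that joins acetyl-CoA units, went from 63.2, 59.6 and 62.7 CPM to 11.8, 11.97 and 13.6 CPM, 4.96-fold lower (log2 −2.31 ± 0.05, edgeR adjusted p = 1.47e-15). HMGCS1, which adds the next acetyl unit, went from 41.04, 43.7 and 46.7 CPM to 22.1, 22.3 and 22.2 CPM, 1.97-fold lower. In neither gene did a treated library reach the lowest control library. The mevalonate kinase MVK (log2 −0.30 ± 0.05) and the phosphomevalonate kinase PMVK (−0.18 ± 0.05, adjusted p = 0.00719) fell least. The call for PMVK was lost in DESeq2 (adjusted p = 0.108), with library totals alone (0.107), in limma on log2(TPM + 1) (0.576) and without treated replicate 6 (0.0529), and that for MVK in limma (0.221). MVD, the decarboxylase that follows them, went from 20.04, 19.9 and 19.5 CPM to 6.41, 5.58 and 5.61 CPM, 3.37-fold lower (log2 −1.75). The mean effective length of MVD fell from 1704 to 1307 bases, and with an offset for that length its log2 fold change was −1.37.

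IDI1, which isomerises the resulting isoprene unit, fell 2.45-fold, from 48.4, 46.8 and 52.2 CPM to 20.6, 19.99 and 19.6 CPM. FDPS, which joins isoprene units to farnesyl diphosphate, fell 1.34-fold, from 136, 131 and 132 CPM to 99.4, 99.9 and 99.0 CPM (adjusted p = 8.53e-10). Per length FDPS had the third highest level of the 42 in control libraries, a mean of 82.1 TPM. Of the 42 genes, 6 share exon bases with a gene of at least 10 CPM (SREBF1, ACAT2, MVK, TM7SF2, FADS1 and FADS2), mostly on the opposite strand, and the sources used here do not say whether strand was used in counting. ACAT2 shares 397 exon bases with the chaperonin gene TCP1 (609 and 325 CPM in control and treated libraries), and MVK shares 306 bases with MMAB (29.6 and 22.6 CPM).

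From squalene to cholesterol the changes were smaller and mixed: of 11 genes 7 fell, 1 rose and 3 did not pass (median −0.56), and none passed with a 2-fold difference. LSS, which folds oxidosqualene into lanosterol, had the lowest adjusted p and went from 51.5, 54.2 and 52.6 CPM to 26.97, 26.2 and 26.3 CPM, 1.99-fold lower (edgeR adjusted p = 8.34e-14). Its treated libraries lay well below its control libraries. The squalene synthase FDFT1 fell 1.67-fold, and the squalene epoxidase SQLE, a rate-limiting enzyme of the pathway, 1.21-fold (adjusted p = 7.84e-06). The sterol reductase TM7SF2 (1.695-fold), the ketosteroid reductase HSD17B7 (1.78-fold) and the isomerase EBP (1.47-fold) fell as well, and the lanosterol demethylase CYP51A1 fell 1.15-fold. In limma on log2(TPM + 1) SQLE (adjusted p = 0.135) and CYP51A1 (0.231) did not pass. The pseudogene HSD17B7P2, whose reads may be shared with HSD17B7, was listed at 0.532 and 1.04 CPM against 11.3 and 6.34 CPM for HSD17B7.

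SC5D, a sterol desaturase near the end of the pathway, went the other way. It was at 23.3, 21.99 and 24.3 CPM in control and 34.9, 35.6 and 34.02 CPM in treated libraries, and each treated library was above each control library. The rise was 1.503-fold (log2 0.59 ± 0.04, edgeR adjusted p = 1.44e-09). The enzymes annotated just before and after it, EBP and DHCR7, were lower in each treated library, the latter without a call. MSMO1, a methyl oxidase further upstream, was at 9.20, 8.401 and 9.40 CPM in control and 10.5, 9.76 and 9.90 CPM in treated libraries, without overlap but not past the threshold (log2 0.16 ± 0.07, adjusted p = 0.0636). NSDHL, a sterol dehydrogenase also upstream, was at 19.9, 19.2 and 20.3 CPM in control and 20.1, 21.9 and 19.995 CPM in treated libraries, with overlapping groups (log2 0.06 ± 0.05, adjusted p = 0.337).

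DHCR7, a reductase of the last steps, had the widest spread between libraries, relative to its level, of the 42 genes. Its control libraries read 30.5, 36.7 and 16.6 CPM and its treated libraries 4.83, 15.1 and 8.74 CPM. The groups did not overlap, but the highest treated library came close to the lowest control library, and the fall of log2 −1.55 ± 0.56 did not pass (edgeR adjusted p = 0.0665). In TPM, DHCR7 was steadier, at 9.60, 11.6 and 9.30 in control and 3.70, 5.09 and 3.53 in treated libraries. It passed in limma on log2(TPM + 1) (log2 −1.14, adjusted p = 8.25e-05), in edgeR with an offset for effective length (−1.39, adjusted p = 6.84e-05) and in DESeq2 (−1.52, adjusted p = 0.0128). STARD4, which carries cholesterol between membranes, fell 2.54-fold, from 13.3, 13.1 and 14.7 CPM to 5.57, 5.36 and 5.28 CPM.

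The 6 members listed under acetyl-CoA, NADPH and malonyl-CoA, with the palmitate synthase FASN among them, all fell (median −1.21), 4 of them at least 2-fold. ACLY, which splits citrate into acetyl-CoA in the cytosol, went from 358, 352 and 359 CPM to 133, 128 and 134 CPM, 2.70-fold lower (log2 −1.43 ± 0.03, edgeR adjusted p = 2.50e-17). ACSS2, which makes acetyl-CoA from acetate, went from 26.3, 24.95 and 24.2 CPM to 6.17, 6.93 and 6.04 CPM, 3.94-fold lower. Both sources of acetyl-CoA were lower in each treated library. ME1, which makes NADPH from malate, fell 2.56-fold, from a mean of 35.1 ± 1.49 to 13.7 ± 0.277 CPM (SD, n = 3). For ACSS2, the share of counts in protein-coding transcripts was 91.6%, 88.7% and 25.8% in control and 16.6%, 64.5% and 71.3% in treated libraries. By the coding sum alone ACSS2 did not pass (edgeR adjusted p = 0.0543). Its mean effective length fell from 1837 to 1372 bases. With an offset for that length its log2 fold change was −1.55, beside −1.98 without.

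Malonyl-CoA for chain building comes from ACACA, and its relative ACACB makes malonyl-CoA at mitochondria. ACACA went from 126, 120.4 and 129.7 CPM to 60.8, 59.9 and 59.4 CPM, 2.09-fold lower (log2 −1.06 ± 0.03, edgeR adjusted p = 1.30e-14). Its mean effective length fell from 4919 to 3788 bases, and with an offset for that length its log2 fold change was −0.67. ACACB fell 1.53-fold (log2 −0.62 ± 0.08), a call lost when TPM were tested with limma (adjusted p = 0.104). FASN, the synthase that builds palmitate, was the member with the highest counts, at 574, 563 and 578 CPM in control and 379, 362 and 361 CPM in treated libraries. The groups were clearly apart, yet its fall of 1.56-fold (adjusted p = 9.60e-13) was, after that of ACACB, the smallest of these 6 genes. Per length FASN had the second highest level in control libraries, with mean levels of 84.7 and 63.2 TPM in control and treated libraries.

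**Figure D4:**
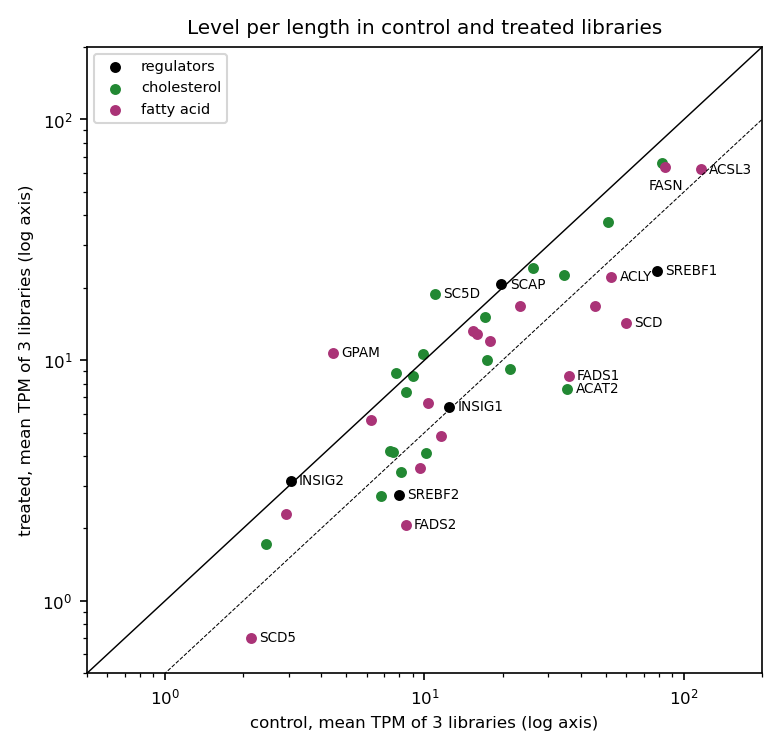
Mean TPM over 3 control libraries against mean TPM over 3 treated libraries for the 42 genes, on log axes, coloured by arm. The solid line marks equal levels and the dashed line a 2-fold lower level in treated libraries. GPAM and SC5D lie above the solid line, SCAP and INSIG2 close to it, and SCD, FADS1, FADS2 and ACAT2 well under the dashed line.

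Of the fatty acid arm, the desaturases FADS2, FADS1 and SCD fell deepest. ELOVL5, which lengthens polyunsaturated chains, went from 124.7, 119 and 128 CPM to 41.6, 41.5 and 40.6 CPM, 3.01-fold lower (edgeR adjusted p = 1.26e-16). ELOVL1, for very long chains, and ELOVL6, which turns palmitate into stearate, fell by 0.63 and 0.59 on the log2 scale. All 5 desaturases fell (median −2.15). SCD, which makes oleate and palmitoleate, went from 446, 443 and 466 CPM to 99.5, 102 and 103 CPM, 4.45-fold lower (log2 −2.15 ± 0.03), with the lowest adjusted p of the 42 genes (4.43e-19). Control and treated libraries of SCD were far apart, with little spread in either group. Its relative SCD5 was far less abundant, at 8.73, 8.33 and 8.20 CPM in control and 2.20, 2.63 and 2.25 CPM in treated libraries, and fell 3.57-fold.

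FADS1 and FADS2, the desaturases of polyunsaturated fatty acids, fell to a similar degree. FADS1 went from 172, 171 and 169 CPM to 35.1, 38.7 and 36.2 CPM (4.65-fold, edgeR adjusted p = 3.46e-18). FADS2 went from 32.1, 32.4 and 32.4 CPM to 5.74, 7.44 and 7.61 CPM (4.67-fold, adjusted p = 4.90e-09). Both pairs of groups were widely separated. The genes lie on opposite strands of chromosome 11 and share 490 exon bases, so without strand their reads there cannot be told apart, and FADS2 shares 49 further bases with FEN1, which was more abundant (251 and 325 CPM). The third gene of the cluster, FADS3, known for desaturating sphingoid bases, was at 37.4, 35.5 and 36.8 CPM in control and 34.6, 31.5 and 27.6 CPM in treated libraries. Its fall of 1.17-fold (adjusted p = 0.0397) was lost when control replicate 1, 2 or 3 or treated replicate 5 was left out (adjusted p = 0.123, 0.0666, 0.102 and 0.114).

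Genes that activate fatty acids and pass them to glycerolipids went different ways. ACSL3, an acyl-CoA synthetase of lipid droplets and the member with the highest TPM in control libraries (116 against 62.0 TPM in treated libraries), went from 339, 301 and 319 CPM to 164, 162 and 160.0 CPM, 1.98-fold lower. ACSL1 fell 1.15-fold (edgeR adjusted p = 0.00113), a call lost when TPM were tested with limma (adjusted p = 0.349). LPIN1, which makes diacylglycerol and is also known to restrain nuclear SREBPs, fell 1.63-fold. GPAM, the mitochondrial acyltransferase that starts glycerolipid synthesis and a known target of SREBP-1, was the only member to rise at least 2-fold. It was at 30.8, 27.9 and 30.3 CPM in control and 66.0, 68.6 and 66.6 CPM in treated libraries, 2.26-fold higher without overlap (log2 1.18 ± 0.04, adjusted p = 3.87e-14).

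Ratios of related members within a library, which do not depend on scaling, were compared by exact permutation tests (two-sided, 8 ratios, of which the 1c to 1a ratio was added after seeing the data). With 3 libraries per group the smallest p such a test allows is 0.10, or 0.133 adjusted over the 8 ratios, and 6 ratios without overlap reached it. FADS1 over FADS3 went from 4.60, 4.80 and 4.60 to 1.01, 1.23 and 1.31 (log2 difference −1.98), so the counts of both genes were close after treatment. INSIG1 over INSIG2 went from 7.84, 7.55 and 7.49 to 3.94, 4.51 and 3.64 (log2 −0.93). ACSL1 over ACSL3 was higher in treated libraries (log2 0.78), while ACACA over ACACB (−0.45), SCD over SCD5 (−0.32) and SREBF1 over SREBF2 (−0.27) were lower. ELOVL6 over ELOVL1 overlapped between groups (log2 0.04, exact permutation p = 0.40).

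**Figure D5:**
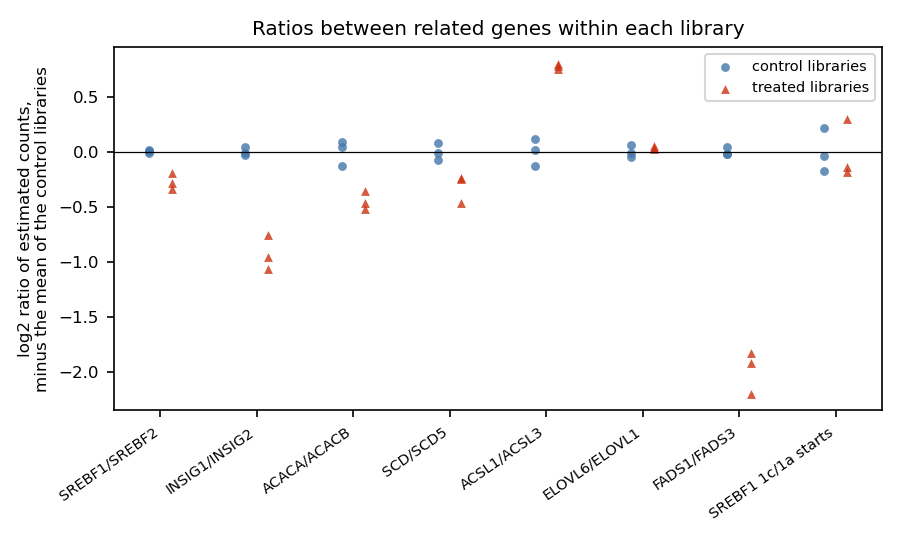
Log2 ratio of estimated counts of related genes within each library, minus the mean of the 3 control libraries. Circles are control and triangles treated libraries (n = 3 each). FADS1 over FADS3 and INSIG1 over INSIG2 lie lowest in treated libraries, ACSL1 over ACSL3 lies above the control libraries, and ELOVL6 over ELOVL1 and SREBF1 1c over 1a overlap.

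The genes around the pathway were counted from 11 other lists of 158 genes, 150 of them tested. In all, 85 fell, 47 rose and 18 did not pass, with a median log2 of −0.32, beside 34.5% lower and 34.9% higher over all genes. Genes that control SREBP cleavage and turnover were split, with 4 of 12 lower, 5 higher and 3 not passing (median 0.08). SPRING1, needed for SREBP cleavage, rose from 59.4 ± 1.55 to 104.9 ± 0.193 CPM (SD, n = 3), and the deacetylase SIRT1 (log2 0.74) and the vesicle coat gene SEC24A (0.51) rose, while the coat genes SEC24D (−0.73) and SEC23A (−0.65) fell. Of 12 genes of sterol-regulated degradation at the endoplasmic reticulum 6 fell, 5 rose and 1 did not pass. The ubiquitin ligase RNF139 rose by log2 1.19, whereas the conjugating enzyme UBE2G2 fell by 1.38 on the log2 scale.

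Among 14 cofactors at SREBP promoters 4 fell, 8 rose and 2 did not pass (median 0.17). NR1H3, which encodes LXR alpha, an activator of SREBF1, fell from 14.3 ± 0.241 to 5.34 ± 0.334 CPM, and the coactivator CREBBP rose (log2 0.92). Of 12 genes on the branches of the mevalonate pathway to dolichol, ubiquinone and prenylated proteins 4 fell, 6 rose and 2 did not pass. DHDDS, which starts dolichol synthesis, rose (log2 0.99), as did GGPS1 (0.56), which makes geranylgeranyl diphosphate, and the prenyltransferase subunit RABGGTB fell (−0.98). Of 18 tested genes of cholesterol storage, transport and efflux 11 fell and 7 rose (median −0.58). The exporter ABCA1 rose from 33.03 ± 2.003 to 62.7 ± 3.10 CPM and the lysosomal transporter NPC1 by log2 0.92, whereas its partner NPC2 (−1.18) and the lysosomal lipase LIPA (−1.13) fell.

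The supply of citrate, acetyl-CoA and NADPH had the lowest median of the 11 lists, −0.91, with 12 of 14 genes lower, 7 of them at least 2-fold, and 2 higher. SLC25A1, the mitochondrial citrate carrier that feeds ACLY, fell from 52.1 ± 0.700 to 10.2 ± 0.496 CPM (log2 −2.35 ± 0.04). In this list ME3 (log2 0.54) and ACSS3 (0.48), both at under 10 CPM, rose. Of 11 other tested genes of elongation and desaturation 8 fell, 2 rose and 1 did not pass. TECR, the reductase that completes each elongation cycle, had the lowest adjusted p (120.3 ± 4.69 to 38.7 ± 0.392 CPM, log2 −1.64), and ELOVL2, at under 3 CPM and named after its values were seen, had the deepest fall (log2 −2.56). Of 13 acyl-CoA synthetases and thioesterases 9 fell, 2 rose and 2 did not pass, and of 15 glycerolipid genes 10 fell, 3 rose and 2 did not pass. In the latter AGPAT1 (−1.18), which acts after GPAM, fell, while GPAT4 (0.46), an acyltransferase for the same step as GPAM, rose.

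Fatty acid oxidation, which consumes the product of the pathway, also held more falls than rises, with 13 of 18 genes lower, 2 higher and 3 not passing (median −0.45). CPT1A, the carnitine acyltransferase that admits fatty acids to mitochondria, fell from 65.1 ± 2.16 to 10.1 ± 0.605 CPM (log2 −2.69 ± 0.05). The dehydrogenases ACADM (−1.52) and ACADVL (−0.96) fell, and the carnitine carrier SLC25A20 rose (0.53). Of 11 tested genes that regulate AMPK and acetyl-CoA carboxylase 4 fell, 5 rose, 4 of them at least 2-fold, and 2 did not pass (median 0.15). TRIB3, a pseudokinase known to act on acetyl-CoA carboxylase and a target of the stress factor ATF4, had the lowest adjusted p and the highest rise of the 11 lists, from 56.1 ± 1.66 to 456.8 ± 5.67 CPM (log2 3.03 ± 0.03). PRKAB2, a subunit of AMPK, rose from 27.2 ± 1.15 to 164.8 ± 3.95 CPM. MID1IP1, which promotes polymers of acetyl-CoA carboxylase, rose from 31.8 ± 1.04 to 181 ± 2.18 CPM, and the kinase gene STK11 (LKB1), which activates AMPK, fell (−0.66).

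The share of counts in protein-coding transcripts was lower without overlap in 6 of the 42 genes and higher in 3, where 16.1% and 12.1% of 15421 protein-coding genes were so. MVK went from 86.7% ± 2.22 to 77.6% ± 2.28 (SD, n = 3), TM7SF2 from 14.5% ± 3.33 to 9.28% ± 2.97, and FDFT1 from 95.6% ± 0.481 to 90.8% ± 1.86. MVD, ACACA and ACLY were the others that were lower. SCAP went from 71.9% ± 1.59 to 76.2% ± 1.06, and STARD4 and LPIN1 were higher as well.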

How the data were processed

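The deposited tables, 1 per library, list 244939 transcripts. Per the file headers they hold estimated counts, TPM, lengths and effective lengths as the authors deposited them; per the submitters' processing notes the tools were kallisto 0.45.0 and DESeq2 1.30.0, with no role stated. Genome build, transcript index, strand setting and RNA selection are not given in the sources used here. Of the transcripts, 203436 were matched to GENCODE 29 (GRCh38), and estimated counts were summed per gene; the unmatched rest took 4.86% to 5.13% of counts.

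Gene sums were rounded, filtered (filterByExpr, minimum count 10, minimum total 15), scaled by TMM and tested with edgeR 4.0.16 (robust quasi-likelihood F test, two-sided, Benjamini-Hochberg over all genes tested, threshold 0.05). Transcripts were tested likewise, and usage with diffSpliceDGE. limma 3.58.1 (pseudocount 1 or 0.1 on TPM) and DESeq2 1.42.0 served as alternatives, with R 4.3.3. Scripts were tested on simulated data. The members and lists were chosen with earlier results of these data known. All members were accounted for; values per library were given for those of each step with the lowest adjusted p, those that went against their step and those that did not pass, and from other lists up to 3 rising and 3 falling genes by adjusted p. The labels describe the cultures as independent and name no batch.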

Additional observations from a re-analysis of the deposited data

How the results depend on the processing

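Over 15 alternatives, 40 of the 42 members kept their direction and 29 kept their call wherever tested. The exceptions in direction did not pass where they turned: INSIG2 was 0.045 (adjusted p = 0.807) and 0.036 (adjusted p = 0.811) in limma on log2(TPM + 0.1) and log2(TPM + 1), and SCAP was −0.038 (adjusted p = 0.616) with an offset for effective length. SREBF1-204 ran from −2.41 to 1.52 with a replicate left out, the latter without control replicate 3, which held most of its control counts. Members that fell numbered 29 in limma on TPM and 33 with library totals, and 34 to 35 with a replicate left out. Members that rose numbered 5 with library totals and 4 with protein-coding transcripts alone, an alternative chosen after seeing the data, and 2 to 4 with a replicate left out. SREBF2 transcripts that fell numbered 3 to 5 with a replicate left out, 5 without treated replicate 5. Changed usage was called for 1 transcript with no filter on low counts and for 2 without control replicate 3, so leaving out a replicate gave 0 to 2. The causes of these shifts were not tested. With library totals alone, 31.1% of genes fell and 37.8% rose. A mean of at least 10 CPM left 35 members to test. Small changes depended most on the setting: MVK, PMVK, SQLE, CYP51A1, ACACB, FADS3 and ACSL1 did not pass in limma on TPM. The error of sharing reads between transcripts is not in these tables. No paired analysis was possible because the groups share no replicate number.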
